A study of Mus musculus with 11 samples.

Results

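The last 2 Mb at the telomere-side end of each mouse autosome were examined for the tagged and untagged histone variants MacroH2A2 and H3.3. The ends were defined by position alone: each chromosome of the mm9 assembly was divided into non-overlapping 100 kb tiles from its first base, and the last 20 full tiles of chromosomes 1 to 19 were taken, which gave 380 end tiles among 24712 autosomal tiles and 26537 tiles when X and Y are added. Of the 380, 374 were kept; 6 lay among the 1% of tiles with the highest signal in the uninduced control and were left out, as were 248 of the 24332 remaining autosomal tiles, and 710 remaining tiles without control reads, while no end tile lacked them. The sequence beyond the last full tile, 17037 to 99783 bp per chromosome, belonged to no tile.

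The 11 libraries were ChIP-Seq of KH2-derived mouse embryonic stem (ES) cells (strain 129 X C57bl/6), which carry the M2rtTA transactivator at ROSA26 and a tetracycline-inducible HA-tagged histone cDNA at Col1a1, and of embryonic fibroblasts (MEF, passage 2) from E12.5 chimeric embryos made with such cells and selected with puromycin against the cells of the host. Anti-HA libraries came from HA-H3.3 ES cells after 3 and 6 h of doxycycline (Dox, 2 µg/ml), from HA-Macro ES cells left uninduced (no Dox) or induced for 3, 6 and 12 h, and from HA-Macro MEFs after 3, 6 and 12 h. Libraries made with an antibody to MacroH2A2 itself came from ES cells and from MEFs, each combining 2 replicates. Every condition had 1 library, so that no difference below has a replicate check and none carries a p-value; intervals cover counting error only, and MEFs had no uninduced library of their own.

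Mouse autosomes are telocentric, with the centromere at the first base of the assembly, so the last tiles are the ones that approach the distal telomere. Telomeres end in tandem copies of TTAGGG, and the regions beside them hold repeats, gene families and, on many chromosomes, gene-dense and GC-rich bands. MacroH2A2 is an H2A variant with a large carboxy-terminal macrodomain, known from silent chromatin and the inactive X chromosome, and H3.3 is the H3 variant laid down outside of S phase by HIRA at active genes and by ATRX and DAXX at telomeres and other repeats. In a pulse of induction, early reads of a tagged histone mark sites of fast incorporation, and later reads mark where the tag accumulates.

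The assembled ends themselves are of different kinds. Those of chromosomes 5, 11 and 18 stop within tandem TTAGGG copies and are not printed. Of the others, 2 are printed to show where the assembly stops. Sequences are read 5′ to 3′ on the plus strand of mm9, all in lower case, and show that the last bases of chromosomes 1 and 2 hold no whole TTAGGG unit.
chr1:197195403-197195432, the last 30 bases: aatttggtattaaacttaaaactggaattc
chr2:181748058-181748087, the last 30 bases: aggtctagggtttgcgcctggattacgggt

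The end tiles held 741 genes by their start sites, 513 of them protein-coding, or 1.95 genes per tile against 1.43 in the remaining assembled tiles, and 1.35 against 0.884 protein-coding genes. Their median GC content was 41.9% against 41.4%, and their median CpG density was 6.99 against 7.77 per kb. At least 2 adjacent TTAGGG units (on either strand) occurred in 13.9% of end tiles and in 4.27% of remaining tiles.

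Signal was the number of distinct intervals with their midpoint in a tile, per 1000000 distinct intervals of the library, written below as RPM. Libraries held 6448310 to 19869559 distinct intervals, and the median kept end tile held 240.5 to 777 of them, so that counting alone gives a standard deviation of 0.05 to 0.09 on the log2 scale, against 0.16 to 0.81 measured among end tiles. The HA-Macro ES 3 h library stood apart from the other HA-Macro libraries in its share of intervals on the Y chromosome, 0.112% against 0.0198% to 0.0244%; in HA-H3.3 3 h and anti-MacroH2A2 ES the share was 0.102% and 0.100%. The part of this difference in the results at 3 h was not tested, and the tile counts and promoter medians at 3 h are given with the 6 h library as well.

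As a class, the ends carried close to the genome's usual amount of both variants. The median end tile had 39.5 RPM in anti-MacroH2A2 ES against 37.4 in the remaining tiles, and 38.8 against 38.1 in anti-MacroH2A2 MEF. HA-Macro gave 35.3, 36.8 and 37.5 at 3, 6 and 12 h in ES cells against 33.0, 36.0 and 36.2, and 38.2, 38.3 and 39.1 in MEFs against 35.7, 36.2 and 36.2. HA-H3.3 gave 37.3 and 31.9 at 3 and 6 h against 35.7 and 28.9. On the log2 scale the ends exceeded the rest by 0.03 to 0.14 in the 10 libraries other than the uninduced control, in which they exceeded it by 0.04. The value of 0.03 in anti-MacroH2A2 MEF became -0.050 once tiles were divided by the uninduced control, and that of HA-Macro ES 6 h, also 0.03, became -0.048 as a median over the 19 chromosomes.

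The share of end tiles above the median of the remaining tiles was 51.6% to 56.1% in the induced and anti-MacroH2A2 libraries and 61.2% in the uninduced control. Set against remaining tiles with the same number of genes, the shares were 47.6% to 55.9%, and 55.1% in the control. Single end tiles had standard deviations of 0.51 in anti-MacroH2A2 ES and 0.47 in anti-MacroH2A2 MEF (log2). The offset turned with the length taken as the end: with the last 10 tiles it was -0.18 in anti-MacroH2A2 MEF, -0.14 in HA-Macro MEF 12 h and -0.05 in anti-MacroH2A2 ES, and with the last 50 tiles 61.0% to 66.7% of end tiles were above the remaining median in the 10 libraries other than the control.

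With the MacroH2A2 antibody, a larger share of end tiles than of all autosomal tiles had a high level. Past 1.5-fold of the median tile, 77 of 374 end tiles were high in anti-MacroH2A2 ES (20.6%, against 12.1% of all kept tiles) and 18 were low (4.81% against 7.47%). In anti-MacroH2A2 MEF 52 were high (13.9% against 9.58%) and 31 low (8.29% against 8.8%). In HA-Macro ES 12 h, 67 were high (17.9%, background 15.3%) and 9 low (2.41%, background 5.02%), and in HA-H3.3 3 h, 75 were high (20.1%, background 17.7%) and 17 low (4.55%, background 6.94%). HA-Macro MEF 12 h went the other way, with a smaller share of end tiles than of all tiles among the high ones, 61 (16.3%, background 18.3%), and 41 low (background 15.3%).

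In ES cells most of the high tiles lay on chromosomes 2, 4, 7, 11 and 15, which held 70 of 77 in anti-MacroH2A2 ES (90.9%), 59 of 67 in HA-Macro ES 12 h (88.1%) and 66 of 75 in HA-H3.3 3 h. In anti-MacroH2A2 MEF chromosomes 4, 7 and 8 had the most high tiles (10, 10 and 6), and chromosomes 1, 2, 11 and 15 tied at 5 each. Chromosomes 4, 7 and 8 with any 2 of the tied ends held 36 of 52 (69.2%), and in HA-Macro MEF 12 h the top 5 held 43 of 61 (70.5%). The number of ends with any high tile was similar, 9 or 10 in these ES libraries and 11 or 12 in these MEF libraries. The share of the variance among end tiles that lay between chromosomes was 69.3% in anti-MacroH2A2 ES, 53.0%, 59.4% and 66.4% in HA-Macro ES at 3, 6 and 12 h, 62.1% and 53.5% in HA-H3.3 at 3 and 6 h, 37.7% to 41.5% in the MEF libraries and 42.8% in the uninduced ES control. Other 2 Mb stretches were not split in this way, so these shares do not set the ends apart from the genome. The end of chromosome 4 (chr4:153600001-155600000) had the highest ratio in anti-MacroH2A2 ES, with a median of 75.4 RPM and tiles from 45.7 to 130.3, against a median of 36.3 on the rest of the chromosome (log2 ratio 1.05). Each of its 19 kept tiles was thus above the chromosome's usual level.

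Next to it in ES cells stood the ends of chromosomes 7 (72.7 against 39.0), 2 (68.4 against 38.1), 15 (60.2 against 37.0) and 11 (63.5 against 43.9). Their tiles ranged from 42.8 to 98.9, 44.8 to 88.0, 37.6 to 78.8 and 34.2 to 121.0 RPM, so that neighbours in this order overlapped broadly. At the other extreme were chromosomes 18 (log2 ratio -0.42), 17 (-0.33, 31.3 against 39.3 RPM), 10 (-0.25) and 3 (-0.19). Between 9 and 13 of the 19 ends were above the rest of their chromosome in each induced or anti-MacroH2A2 library, and 14 in the uninduced control, where the ratios stayed between -0.15 and 0.24.

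The same 5 ends were the highest in HA-H3.3. At 6 h the log2 ratio was 1.68 on chromosome 4, 1.23 on 15, 1.17 on 2, 0.85 on 11 and 0.63 on 7, and at 3 h it was 1.04, 0.61, 0.79, 0.57 and 0.67. Across the 19 ends the anti-MacroH2A2 ES ratios followed those of HA-Macro ES 12 h (Pearson r = 0.985, Spearman rho = 0.956) and of HA-H3.3 3 h (r = 0.975, rho = 0.960). These are descriptions over 19 ends that share genome, mapping and base composition, and are given with no p.

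MEFs had another order. In anti-MacroH2A2 MEF the ends of chromosome 4 (0.68) and 7 (0.59) remained highest, followed by chromosome 1 (0.40, against 0.11 in ES cells) and 16 (0.39), whereas chromosomes 2, 15 and 11 stood at 0.21, 0.25 and 0.11. On chromosome 1 the median end tile had 48.4 RPM in anti-MacroH2A2 MEF against 36.7 on the rest of the chromosome, and 46.5 against 34.0 in HA-Macro MEF 12 h. The lowest ends were chromosomes 10 (-0.45) and 18 (-0.44) with the MacroH2A2 antibody, and -0.82 and -0.69 in HA-Macro MEF 12 h. The ratios with both antibodies in MEFs followed each other (r = 0.962, rho = 0.974, 19 ends), and those of the MacroH2A2 antibody in ES cells and MEFs did so less closely (r = 0.837, rho = 0.879).

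**Figure D1:**
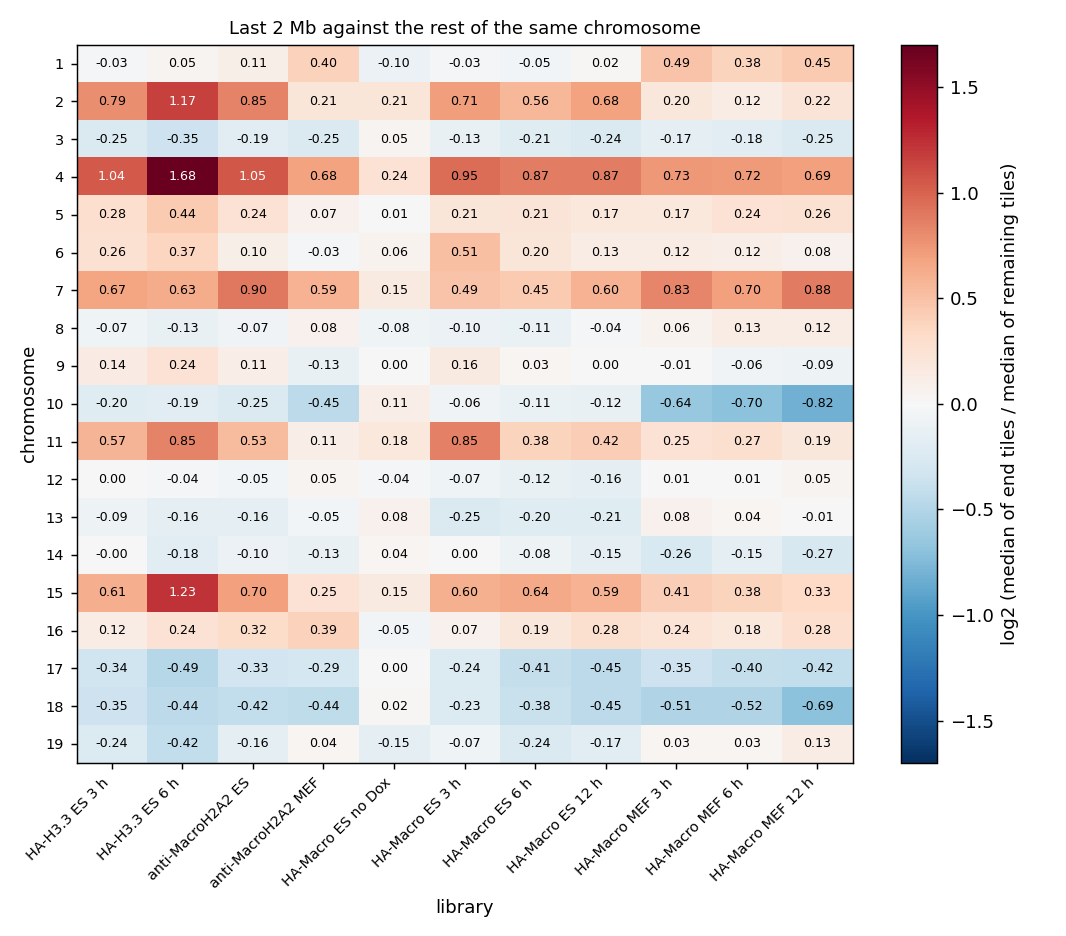
Log2 ratio of the median end tile over the median remaining tile of the same chromosome (colour and printed value), for the 19 autosomes (vertical axis) and the 11 libraries (horizontal axis). Chromosomes 2, 4, 7, 11 and 15 are high in all ES libraries with a tagged or detected variant, with 1.68 for chromosome 4 in HA-H3.3 6 h as the maximum, while chromosome 10 reaches -0.82 in HA-Macro MEF 12 h.

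The order of the ends ran alongside their base composition. The end of chromosome 4 was 49.9% GC, that of 7 was 49.2%, 11 was 48.4%, 2 was 47.8% and 15 was 46.3%, whereas those of 13, 18 and 17 were 37.8%, 38.0% and 38.0%. Across the 19 ends the log2 ratio had r = 0.948 (rho = 0.928) with GC content in anti-MacroH2A2 ES, 0.944 (0.925) in HA-Macro ES 12 h, 0.913 (0.861) in HA-H3.3 3 h, 0.779 (0.796) in anti-MacroH2A2 MEF, 0.757 (0.805) in HA-Macro MEF 12 h and 0.579 (0.40) in the uninduced control. With the number of genes it had r = 0.623 to 0.771 (rho = 0.635 to 0.804) in the ES libraries with a variant, 0.171 to 0.245 (rho = 0.405 to 0.436) in MEFs and 0.727 (rho = 0.535) in the uninduced control. The part of GC content in the signal was not tested; in the control the ratios spanned a narrower range.

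**Figure D2:**
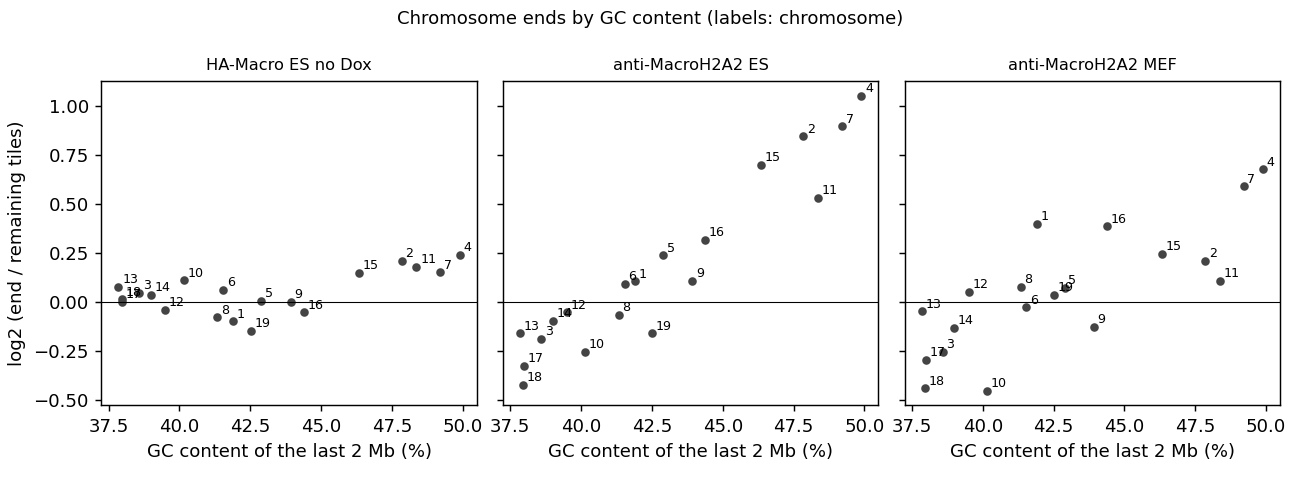
Log2 ratio of end over remaining tiles (vertical axis) against the GC content of the last 2 Mb in percent (horizontal axis), 1 point per autosome labelled by its number, for the uninduced control, anti-MacroH2A2 ES and anti-MacroH2A2 MEF. In ES cells the points climb from -0.42 at 38.0% GC to 1.05 at 49.9% GC; in MEFs chromosome 1 lies high for its GC content and chromosome 10 low.

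Compared with remaining autosomal tiles of the same GC content, in classes of 2 percentage points, the ends differed less in some ES libraries than in others. The median log2 ratio of an end then lay between -0.11 and 0.17 in anti-MacroH2A2 ES and between -0.15 and 0.15 in HA-Macro ES 12 h, and it was -0.02 for chromosome 4 in the first of these. In the uninduced control the range was from -0.12 (chromosome 1) to 0.13 (chromosome 10). In the other induced ES libraries it was wider, from -0.28 (chromosome 16) to 0.40 (chromosome 6) in HA-Macro 3 h, from -0.27 (chromosome 7) to 0.21 (chromosome 10) in HA-Macro 6 h, from -0.31 (chromosome 7) to 0.30 (chromosome 6) in HA-H3.3 3 h and from -0.65 (chromosome 7) to 0.47 (chromosome 15) in HA-H3.3 6 h. In MEFs differences remained in both directions. Chromosome 13 was at 0.23 with the MacroH2A2 antibody and 0.50 in HA-Macro MEF 12 h, chromosome 1 at 0.35 and 0.38, chromosome 2 at -0.18 and -0.33, chromosome 10 at -0.24 and -0.40, and chromosome 18 at -0.24 and -0.26. The ES values of these 5 ends on the same scale were 0.17, 0.06, 0.05, 0.09 and -0.11 with the MacroH2A2 antibody.

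The end of chromosome 10 was the second richest in genes (99, after 104 on chromosome 11) and yet among the poorest in MacroH2A2. Of its 20 tiles, 13 held the start of an olfactory receptor gene (Olfr), a family of odorant receptors expressed in sensory neurons; all 58 Olfr genes found at the ends, of 1113 annotated, lay here. The 13 tiles had a median of 31.2 RPM in anti-MacroH2A2 ES (22.3 to 45.6), 27.3 in anti-MacroH2A2 MEF (17.5 to 45.4), 20.6 in HA-Macro MEF 12 h (18.7 to 48.2) and 41.9 in the uninduced control. The 7 other tiles of this end had 49.2, 34.3, 35.3 and 44.2, and the 2 sets overlapped in every library.

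Olfactory receptor clusters elsewhere had much the same levels. The 317 remaining tiles with an Olfr gene had medians of 30.2, 27.2 and 22.3 RPM in anti-MacroH2A2 ES, anti-MacroH2A2 MEF and HA-Macro MEF 12 h, and 39.8 in the control, at 38.9% GC against 37.6% in the 13 end tiles. The 361 other kept end tiles had 40.3, 39.5, 39.5 and 40.3. Against tiles with as many genes, the 5 lowest end tiles in anti-MacroH2A2 ES were all in this cluster, from 22.3 RPM at chr10:128800001-128900000 (Olfr784, Olfr786 and Olfr787) to 31.6 at chr10:129100001-129200000 (Olfr801 to Olfr807).

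The 5 highest tiles by the same measure were 4 of chromosome 4 and 1 of chromosome 11, at 50.9% to 54.1% GC. The tile chr4:153600001-153700000, with the guanine nucleotide exchange factor gene Arhgef16, had 122.6 RPM in anti-MacroH2A2 ES (exact 95% Poisson interval 115.3 to 130.3) and 87.9 in anti-MacroH2A2 MEF (83.2 to 92.8), against 49.8 in the uninduced control. The tile chr4:154300001-154400000, with Tnfrsf14, a receptor of the TNF family, the Notch target Hes5 and Pank4, had 130.3 and 91.0 against 52.5, and chr11:119800001-119900000, with Baiap2, had 121.0 and 74.6 against 53.5. All 3 are close to the control level, 53.8 RPM, above which tiles were left out.

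Levels were not even along the last 2 Mb. The 73 kept tiles of the outermost 0.4 Mb had a median of 33.7 RPM in anti-MacroH2A2 ES, and the medians inward were 38.9 at 0.4 to 1 Mb, 42.4 at 1 to 2 Mb and 48.4 at 2 to 3 Mb, before they returned to 36.8 more than 10 Mb from the end. In anti-MacroH2A2 MEF the same series was 29.9, 39.4, 43.3, 47.5 and 37.8, and in HA-Macro MEF 12 h it was 28.4, 39.4, 43.7, 45.1 and 35.7. HA-Macro ES 12 h ran from 34.2 through 36.4, 40.3 and 50.7 to 35.7. The uninduced control was nearly flat, with 41.3, 40.3, 40.0, 39.8 and 39.2. GC content ran in parallel, at 39.9%, 41.7%, 42.6%, 46.0% and 41.2%.

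**Figure D3:**
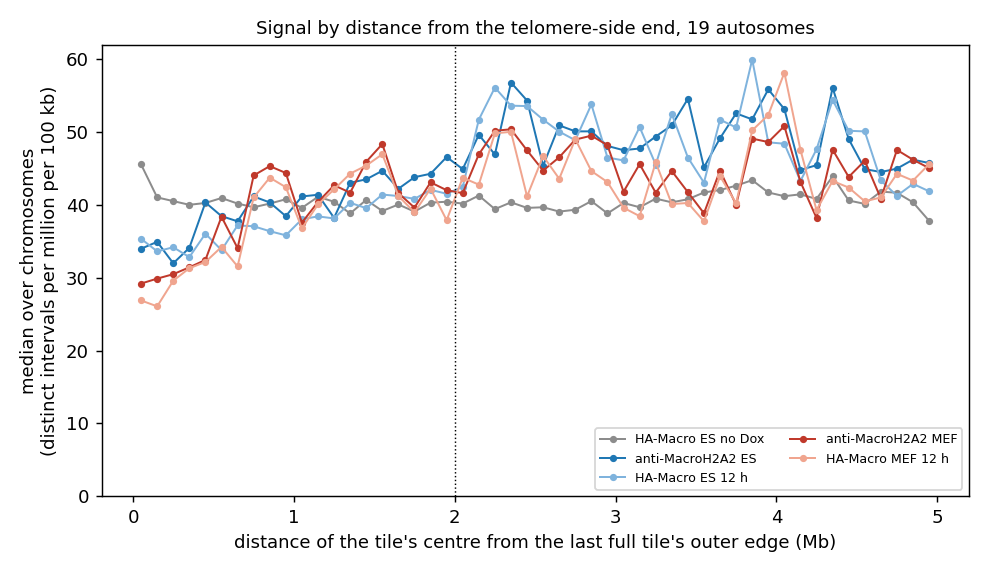
Median over the autosomes of the RPM of a 100 kb tile (vertical axis, from 0) by the distance in Mb of the tile's centre from the outer edge of the last full tile (horizontal axis), with a dotted line at 2 Mb. The MEF curves (reds) begin near 30 RPM and exceed 40 within 1 Mb, ES curves (blues) climb to about 50 beyond 2 Mb, and the control (grey) stays near 40 apart from its first point.

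In MEFs the outermost 0.4 Mb stayed low when tiles of the same GC content were the reference. The median log2 ratio was -0.26 in anti-MacroH2A2 MEF, with 58 of 73 tiles and 17 of 19 chromosomes below 0, and -0.23, -0.19 and -0.20 in HA-Macro MEF at 3, 6 and 12 h, with 14, 13 and 13 chromosomes below 0. In ES cells it was -0.02 in anti-MacroH2A2 ES (10 of 19 chromosomes below 0), 0.13, 0.01 and 0.01 in HA-Macro at 3, 6 and 12 h, and 0.07 in the control (3 of 19). Within the ends, the outer 0.4 Mb was below the inner 1.6 Mb on 18 of 19 chromosomes in anti-MacroH2A2 MEF and on 16, 15 and 16 in HA-Macro MEF, against 16 in anti-MacroH2A2 ES, 9, 9 and 12 in HA-Macro ES and 9 in the control. Chromosome 7 was the exception in anti-MacroH2A2 MEF, where its outer tiles were higher by 0.45 on the log2 scale, and the widest step was on chromosome 8, where the outer tiles were lower by -1.01. The low outer values against tiles of the same GC content stood in all 4 MEF libraries, made with 2 antibodies, against -0.04 to 0.13 in the 7 ES libraries. Whether the MEF libraries share a culture or batch that adds to this was not tested.

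Comparisons between libraries were made tile by tile, with a tile called past 1.5-fold. Between 3 and 6 h of HA-H3.3, 13 of 374 end tiles were higher (background 4.07%) and 38 lower (background 11.4%), and the median log2 change was -0.21 in the ends and -0.24 over all tiles. Since the median tile itself moved, the calls were repeated after each library was divided by its median tile: 47 end tiles were then higher (12.6%, background 14.8%) and 0 lower (background 0.58%). Under both scalings the shares lay near those of the genome. At the level of chromosomes, the median log2 change of the end tiles was above 0 on 4 ends as scaled and on 13 of 19 after median scaling. The median end tile was higher at 6 h on chromosomes 15 (64.1 against 53.7), 4 (90.8 against 72.6), 11 (71.8 against 65.4) and 2 (69.1 against 64.1).

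After 3 h of Dox in HA-Macro ES cells, 43 end tiles were higher than without Dox (11.5%, background 8.99%) and 18 lower (4.81%, background 5.67%), which became 75 (20.1%, background 18.6%) and 0 (background 0.0463%) with median scaling. The higher tiles were mainly on chromosomes 4 and 11 (9 each), 15 (7) and 2 (5). With the 6 h library in place of the 3 h one, 17 were higher (4.55%, background 5.53%) and 15 lower (4.01%, background 4.94%). At 12 h over no Dox, 23 were higher (6.15%, background 6.05%) and 31 lower (8.29%, background 7.9%), and with median scaling 41 (background 10.5%) and 9 (background 2.28%).

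From 3 to 12 h of HA-Macro in ES cells, 12 end tiles were higher (3.21%, background 3.12%) and 27 lower (7.22%, background 6.62%); with median scaling these were 3 (background 0.838%) and 44 (11.8%, background 9.81%). The lowest ratio of 12 h over 3 h was at chr3:157600001-157700000, which holds Ankrd13c, the splicing factor gene Srsf11 and Lrrc40, from 74.2 RPM (70.1 to 78.4) to 32.6 (30.0 to 35.4), a log2 change of -1.19; the level was 46.5 without Dox and 37.0 at 6 h. The second lowest was at chr6:148800001-148900000, which holds Caprin2 and Fam60a, with 74.0 at 3 h, 46.8 at 6 h and 39.2 at 12 h. The highest ratio was in a tile without a gene, chr4:154100001-154200000, from 44.6 (41.5 to 48.0) to 80.0 (75.9 to 84.3), with 63.4 at 6 h and 42.7 without Dox.

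With the 6 h library as the earlier time, 0 of 374 end tiles passed 1.5-fold in either direction to 12 h, when 1 of all 23746 tiles was higher (background 0.00421%) and 0 lower (background 0%). In MEFs 0 of 374 tiles passed in either direction between 3 and 12 h (background 0.00421% each way, 1 tile of 23746), with a standard deviation of 0.12 on the log2 scale among end tiles, against 0.36 for the same times in ES cells and 0.14 for 6 to 12 h in ES cells.

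With the MacroH2A2 antibody, 22 end tiles were lower in MEFs than in ES cells (5.88%, background 4.12%) and 4 higher (1.07%, background 3.42%). All 22 lay on chromosomes 11 (6), 4 (5), 2 (4), 15 (4), 7 (2) and 10 (1). The lowest ratio was at chr4:155200001-155300000, which holds Aurkaip1, Mxra8 and the Wnt pathway gene Dvl1 among others, with 83.1 RPM (77.1 to 89.5) in ES cells and 41.1 (37.9 to 44.5) in MEFs, a log2 ratio of -1.02. It was followed by chr11:120400001-120500000, with P4hb, the disulphide isomerase gene, at 82.8 and 44.7, and by chr15:103100001-103200000, with Copz1, Gpr84, Zfp385a and the integrin gene Itga5, at 66.1 and 35.7. In HA-H3.3 6 h these 3 tiles had 93.9, 174.7 and 115.4 RPM.

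The tile with the highest MEF over ES ratio, chr19:60500001-60600000, holds Prlhr, the receptor of prolactin-releasing peptide, and had 69.5 RPM in MEFs (65.4 to 73.9) and 41.2 in ES cells (37.0 to 45.7). A tile without protein-coding genes, chr8:130200001-130300000, had 71.4 and 43.9. In HA-Macro at 12 h, 30 end tiles were higher in MEFs (8.02%, background 11.4%) and 29 lower (7.75%, background 9.74%). At 6 h these were 41 (background 11.7%) and 30 (8.02%, background 9.58%), and at 3 h 70 (18.7%, background 18.4%) and 74 (19.8%, background 16.4%). At all 3 times 22 end tiles were higher (5.88%, background 9.12%) and 14 lower (3.74%, background 4.18%). Of the higher tiles at 12 h, 3 were shared between the antibodies, 75% of the 4 and 10% of the 30, and of the lower tiles 6 were shared, 27.3% of the 22 and 20.7% of the 29. Over all kept tiles the shared higher tiles were 75.9% of those called with the MacroH2A2 antibody and 22.6% of those called in HA-Macro, and the shared lower tiles 41.9% and 17.9%.

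Promoters at the ends were then compared with other promoters, as distinct intervals with their midpoint within 600 bp of the start site. The 501 protein-coding genes of the kept end tiles had a median of 1.18 RPM in anti-MacroH2A2 ES against 0.941 at 20219 other autosomal genes, 0.607 against 0.540 in anti-MacroH2A2 MEF, and 1.97 against 1.78 in HA-H3.3 6 h. The 2 medians were equal in HA-Macro ES 6 h (0.776), HA-Macro MEF 3 h (0.555) and 12 h (0.453) and the uninduced control (0.592). In the other libraries the end median was higher. Between 3 and 12 h of HA-Macro the log2 change, with 1 read added to each count, had a median of -0.43 in ES cells (71.3% of end genes below 0) against -0.47 elsewhere (69.9%), and of -0.20 against -0.25 in MEFs. From 6 to 12 h in ES cells it was -0.20 against -0.25, and the MEF values depended on the read added, since equal reads at 3 and 12 h score -0.88 there through unequal depth: the end median was -0.43 with 5 reads added, and -0.11 against -0.13 elsewhere with the added read scaled to depth. MEF over ES with the MacroH2A2 antibody gave -0.80 for both sets, which is also the value of equal reads in these libraries of unequal depth. With the added read scaled to depth the medians were -0.67 at the ends and -0.63 elsewhere, with 78.6% and 74.5% of genes below 0. Median counts were 6 to 21 reads per promoter, so a single gene's ratio has a wide interval.

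Gene lists of the ends are described beside all end genes, of which 82.8% were below 0 in MEF over ES with the MacroH2A2 antibody (median -0.80), 71.3% in HA-Macro ES 12 h over 3 h (median -0.43) and 64.5% in 12 h over 6 h. The list labelled housekeeping held Actg1, Fasn, P4hb, Eef1a2, Gnb1, Prdx3 and Hsp90ab1, and 6 of these 7 lay at the ends. All 6 had a lower anti-MacroH2A2 promoter value in MEFs than in ES cells (median log2 ratio -1.04). In ES cells 5 of 6 had a lower HA-Macro value at 12 h than at 3 h (median -0.98), which became 4 of 6 from 6 to 12 h (median -0.17). All 8 zinc finger genes named Zfp were below 0 in both of these comparisons (medians -0.86 and -0.79), and from 6 to 12 h 7 of them were, with a median of -0.32. The 3 ribosomal protein genes of kept tiles had a median of -1.94 from 3 to 12 h, among them Rps4y2 with -2.59, and of -0.93 from 6 to 12 h. The list labelled developmental transcription factors held Zic2, Zic5, Emx2, Sox18, Myt1, Hes5, Ski and Nanos1, and 6 of these 8 lay at the ends. Of these 6, 5 were below 0 from 3 to 12 h (median -0.78) and all 6 from 6 to 12 h (median -0.80). At 12 h in ES cells the Zfp list had a median of 0.593 RPM, against 0.719 in the uninduced control. The developmental list had 0.678 against 0.677, and the ribosomal protein genes 0.396 (0.226 to 0.452) against 0.677. The housekeeping list stayed higher, at 1.47 against 0.719. In MEF over ES of HA-Macro at 12 h, 71.3% of all end genes were below 0 (median -0.49). So were 5 of 6 genes of the housekeeping list (median -1.23). The Zfp list had 4 of 8 genes below 0 (median -0.06), and the developmental list 2 of 6 (median 0.35). With the MacroH2A2 antibody all 6 genes of the developmental list were below 0 in MEF over ES (median -0.95). The antibodies thus differed in the Zfp and developmental lists.

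Values from 3 to 12 h of HA-Macro in ES cells follow for further lists. The 17 keratin genes of the chromosome 15 end, which encode the type II intermediate filaments of epithelia and Krt18 beside them, had a median of 0.08 with 7 below 0, the 9 Hoxc genes -0.09 with 5 below 0, the 58 Olfr genes 0.11 with 27 below 0, and the 4 vomeronasal receptor genes (Vmn) 0.52 with 0 below 0. The 5 genes of the Kcnq1 imprinted domain that lie within 2 Mb had -0.82 with 4 below 0, and the 4 genes of the list of Fgf genes and cyclin D1 -0.65 with 3 below 0. Of 8 genes for telomere and repair factors only the helicase gene Rtel1 lies at an end, with 13 promoter reads at both 3 and 12 h in ES cells and 38 in HA-H3.3 6 h. From 6 to 12 h the medians of the keratin, Hoxc, Olfr, Vmn, Kcnq1 domain and Fgf lists were 0.21, -0.17, 0.13, 0.21, -0.20 and -0.46.

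The protein-coding genes nearest to each end had few promoter reads. Of these 19 genes, at 37.8 kb (Mrgprf, chromosome 7) to 337.6 kb (Rpe65, the retinal isomerohydrolase gene, chromosome 3) from the last base, 17 lay in kept tiles, and 14 of the 17 were lower in MEFs than in ES cells with the MacroH2A2 antibody, against 82.8% of all end genes, and 14 against 78.6% with the added read scaled to depth. Bicd1, a dynein adaptor gene on chromosome 6, had the most reads among them, 18 in ES cells and 16 in MEFs, or 2.12 and 1.08 RPM. Rfc3, a subunit gene of the DNA clamp loader on chromosome 5, had 5 and 1.

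For some promoters the counting intervals at 3 and 12 h in ES cells did not overlap. Fgf4, a growth factor gene expressed in ES cells (chr7:152047291-152051148, plus strand), had 17 HA-Macro reads without Dox and 72, 39 and 21 at 3, 6 and 12 h in ES cells, or 4.34 RPM (3.40 to 5.47) at 3 h and 1.19 (0.73 to 1.81) at 12 h, and 19, 24 and 41 reads in MEFs, or 1.76, 2.28 and 2.06 RPM. The ES value at 12 h was near that of the control, 1.44 RPM, while the MEF values lay within each other's intervals. Actg1, the gene of cytoplasmic gamma actin (chr11:120207004-120209856, minus strand), had 68, 29 and 26 reads in ES cells against 11 without Dox, and 10, 14 and 13 in MEFs. At 3 h in ES cells Fgf4 and Actg1 had the highest values of their gene lists. Srsf11 had 30, 16 and 8 reads against 5 without Dox, and Thoc4, an mRNA export factor gene chosen after its values were seen, 59, 29 and 31 against 7.

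At the promoter of Arhgef16 the later ES libraries held more signal. It had 10, 30 and 37 reads at 3, 6 and 12 h in ES cells, 0.603 to 2.09 RPM, against 5 without Dox, and 2.40, 0.856 and 1.71 RPM in MEFs, with no single direction over time. Krt79 had 14, 26 and 34 in ES cells against 6 without Dox, or 0.844, 1.55 and 1.92 RPM, with intervals at 3 and 12 h that overlapped, and 3.61, 2.76 and 3.67 RPM in MEFs. It was the highest of the keratin list at 6 and 12 h in ES cells and at each time in MEFs. The list medians were 0.657 and 0.735 RPM at 6 and 12 h in ES cells and 0.755 to 0.925 in MEFs. Prlhr had 18, 17 and 29 in ES cells, or 1.09, 1.01 and 1.64 RPM with overlapping intervals, and 50, 56 and 84 in MEFs, or 4.62, 5.33 and 4.23, so its MEF and ES intervals were apart at every time. Cdkn1c, the imprinted cell cycle inhibitor, had 2.23 and 2.15 RPM at 3 and 6 h in ES cells (37 and 36 reads) and 1.24 at 12 h (22 reads), with intervals that overlapped, and had 1.94, 2.09 and 2.37 RPM in MEFs. Its ES values were the highest of the Kcnq1 domain list.

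**Figure D4:**
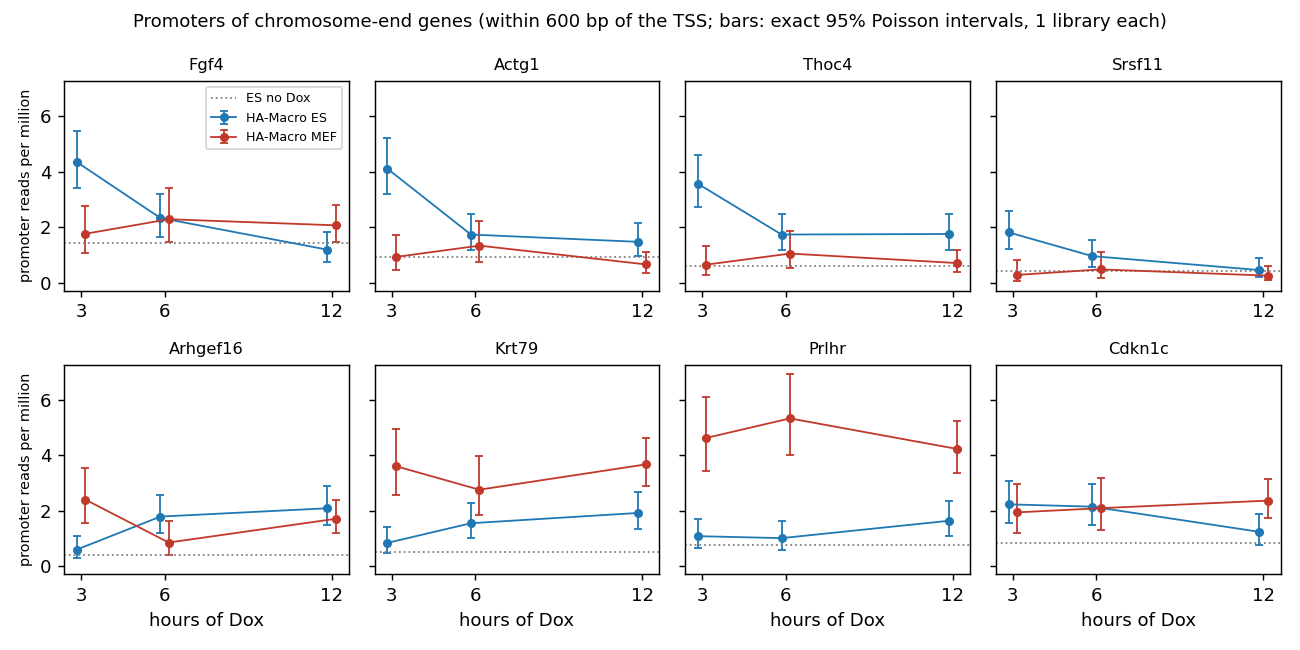
Promoter signal in RPM (vertical axis) at 3, 6 and 12 h of Dox (horizontal axis) for 8 genes of the chromosome ends in HA-Macro ES cells (blue) and MEFs (red), with exact 95% Poisson intervals as bars and the uninduced ES level as a dotted line. In ES cells Fgf4 is at 4.34 RPM at 3 h and 1.19 at 12 h and Arhgef16 at 0.603 and 2.09, and Prlhr is higher in MEFs at all 3 times.

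The telomere repeat itself was read from perfect TTAGGG arrays of at least 36 bp, counting every interval that touched one, here per 1000000 intervals of the library. In the last 1000 bp of the assembly, the unit TTAGGG occurred 100 times on chromosome 2, 87 times on chromosome 18, 35 times on chromosome 11 and 22 times on chromosome 5. The assembly held 243 arrays, 17 in the last 2 Mb of autosomes, 211 elsewhere on autosomes and 15 on X and Y. The 17 include arrays in the sequence beyond the last full tile. Of the 17, 8 lay within 1 kb of an autosome end (5 on chromosome 2 and 1 each on chromosomes 5, 11 and 18). These 8, and 1 more on chromosome 1, lay beyond the last full tile and so in no tile of the comparisons above. The 17 end arrays had 165 RPM in the uninduced ES library and 591, 796 and 1721 at 3, 6 and 12 h of HA-Macro in ES cells, 3.60, 4.84 and 10.5 times the uninduced value. HA-Macro MEFs had 223, 267 and 239 RPM, 1.36, 1.62 and 1.45 times the uninduced ES value. The 8 arrays within 1 kb of an end, in no tile, had 138 RPM of this without Dox. They had 496, 659 and 1436 RPM in ES cells and 176, 212 and 198 RPM in MEFs.

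The part of the ends in this signal cannot be told apart from that of other arrays, since reads with several matches were placed by the authors at 1 of them at random. The 211 autosomal arrays outside of the ends had 3.45, 4.79 and 9.94 times the uninduced value in ES cells, and the arrays as a whole took up 1.03% of the ES 12 h library against 0.103% without Dox. Intervals that ran past the last base of an autosome numbered 366 without Dox, 2012, 2711 and 6277 in ES cells, and 464, 530 and 942 in MEFs.

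The excess over the uninduced library lay in repeated copies of the same intervals. Counted once each, the intervals on end arrays were 1.14, 1.18 and 1.16 times the uninduced value in ES cells and 1.18, 1.32 and 0.828 times in MEFs, and each distinct interval occurred 1.77 times without Dox and 16.0 times at 12 h in ES cells. The 17 arrays sum to 1797 bp, so they offer few distinct positions, and whether the copies are separate molecules or products of amplification was not tested. HA-H3.3 had 8.48 and 13.2 RPM on the end arrays at 3 and 6 h, and the MacroH2A2 antibody 3.98 RPM in ES cells and 4.03 RPM in MEFs. These 4 files hold longer intervals and 0.462% to 0.693% repeated ones, against 3.27% to 6.00% in the HA-Macro files, so they were not compared with HA-Macro. Between the 2 HA-H3.3 libraries, 55 intervals were found at 3 h and 142 at 6 h.

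**Figure D5:**
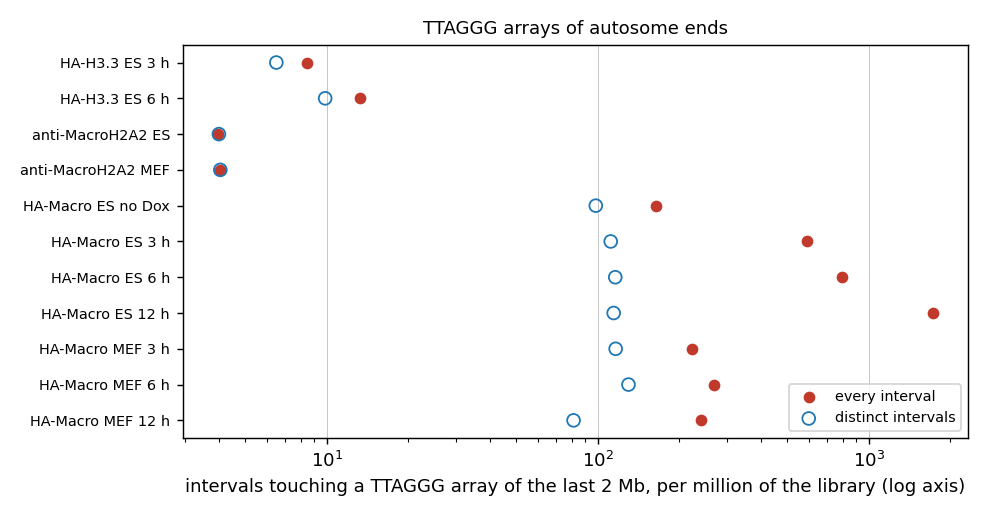
Intervals touching a TTAGGG array of the last 2 Mb, in RPM of all intervals of the library (horizontal log axis) in the 11 libraries (vertical axis), with every interval counted (filled) or each distinct interval once (open). In HA-Macro ES cells the filled points move from 165 without Dox to 1721 at 12 h, while the open points stay within 1.18 times the uninduced value.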

How the data were processed

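The authors collapsed ChIP-Seq reads of 36 to 37 bases by sequence and kept the number of times each occurred. They aligned them to mm9 with bowtie (1.0 in the submitters' processing notes), allowed 1 mismatch, placed reads with several matches at 1 location at random, and lengthened each in its 3′ direction. The deposited files list the chromosome, first and last base of each interval, with no strand, count or score; intervals were 150 bp in the anti-HA HA-Macro files and 400 bp in the others, although the methods give 150 bp, and were not clipped at chromosome ends. The uninduced library was taken as such by its label, although the name of its deposited file mentions Dox, and since sources differ on the Dox state of the anti-MacroH2A2 libraries these were described by antibody and cell type alone.

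Intervals were counted per 100 kb tile by midpoint, each distinct interval once, and scaled to RPM, per 1000000 distinct intervals on chr1 to chr19, X and Y (6448310 to 19869559 per library). Leaving out tiles in the top 1% of uninduced signal follows the study's methods; tiles with 0 uninduced reads were left out of every comparison, where the study describes a like step for its correlations. Genes were GENCODE vM1 on NCBIM37, whose chromosome lengths equal those of mm9, assigned by start site. Tiles were matched by gene number (0 to 9, then 10 or more) or GC class, by strata with no random draw. Promoters were 600 bp on each side of the start site, with 1 read added before ratios. Called means past 1.5-fold; no test was run, as each condition has 1 library. HA-Macro ES and MEF libraries were set side by side at each of 3 matched times, without a fit of cell type and time, since time points of a culture are not replicates of a condition. Intervals are exact 95% Poisson and cover counting error only, since reads carry no molecular identifiers.

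Named genes were, by rule, the one nearest to each end, genes of the extreme tiles, and the members of fixed lists; Dvl1, Zfp385a, Itga5 and Thoc4, in such tiles, were named after their values were seen. The members and lists were chosen with earlier results of these data known. Python 3.11.15, numpy 2.4.6, pandas 2.3.3 and scipy 1.17.1 were used. The ratio of ends over the rest was recovered from simulated tile counts with set ratios, and the array search was checked on a made-up sequence. Alternatives were every interval, the first base, no discarded tiles, a count minimum, division by the control, 10 or 50 tiles per end, median scaling, protein-coding genes, GC content, a fold limit of 5 to 4, 1000 bp and 5 reads added. The 6 h library for tiles, the median of chromosomes, distinct intervals on arrays and an added read scaled to depth were chosen after seeing the data. Some items are not reported here.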

Additional observations from a re-analysis of the deposited data

Results flagged for a closer look

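Outside the autosomes, intervals that ran past the assembled end of X numbered 82.8 per 1000000 at 12 h of HA-Macro in ES cells, against 8.62 in the uninduced library. This signal lies in no tile of the comparisons above and was picked out because it exceeded the control. Counted once each, the intervals past the X end were 6.22 and 5.33 per 1000000 distinct intervals. Past the autosome ends, with every interval counted, the values were 333 and 29.2 per 1000000.

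The log2 ratio of ends over remaining tiles moved in opposite directions between 3 and 12 h of HA-Macro, by -0.043 in ES cells and by 0.012 in MEFs. The ES sign rests on the 3 h library, which stands apart in its share of Y intervals: from 6 to 12 h the ES ratio went from 0.033 to 0.052. It also turned as the median of the 19 chromosomes, from 0.0014 at 3 h to 0.0021 at 12 h, and with the last 50 tiles both cell types went up, from 0.22 to 0.27 in ES cells and from 0.17 to 0.19 in MEFs. With the last 10 tiles both went down, from 0.0053 to -0.016 in ES cells and slightly in MEFs. Each time point is 1 library, and the difference was not tested.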

How the results depend on the processing

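The share of end tiles above the remaining median depended on the length taken as the end. With the last 50 tiles it was 66.3% and 65.2% in HA-H3.3 at 3 and 6 h, 66.7% and 62.5% in anti-MacroH2A2 ES and MEF, 64.7%, 63.7% and 66.6% in HA-Macro ES at 3, 6 and 12 h, and 62.1%, 61.0% and 61.7% in HA-Macro MEF. With the last 10 tiles it was 48.1% and 41.7% in anti-MacroH2A2 ES and MEF, 46.0% and 47.1% in HA-Macro ES at 6 and 12 h, and 43.3%, 45.5% and 44.9% in HA-Macro MEF. Against tiles with as many genes, the last 50 tiles gave, in the same order of libraries, 63.4%, 59.5%, 65.8%, 62.7%, 59.7%, 60.9%, 63.9%, 62.2%, 62.6% and 61.2%, and the last 10 gave 38.0%, 36.4%, 44.4%, 40.6%, 45.5%, 38.0%, 37.4%, 41.2%, 46.0% and 42.8%. GC content in place of gene number gave 46.5% and 48.4% in HA-Macro MEF at 3 and 6 h. The log2 ratio of medians reversed with the last 10 tiles, to -0.046 and -0.18 in anti-MacroH2A2 ES and MEF, -0.044 and -0.016 in HA-Macro ES at 6 and 12 h, and -0.13, -0.046 and -0.14 in HA-Macro MEF. With the last 50 tiles it was, in the order of libraries above, 0.25, 0.37, 0.27, 0.18, 0.22, 0.21, 0.27, 0.17, 0.18 and 0.19. It also reversed to -0.050 in anti-MacroH2A2 MEF when divided by the control, where the share above the median went from 51.6% to 47.1%, and to -0.048 in HA-Macro ES 6 h as the median of the 19 chromosomes.

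Counts of tiles past 1.5-fold moved with scaling to the median tile, to 47 higher and 0 lower in HA-H3.3, 75 and 0 in HA-Macro ES 3 h over no Dox, 41 and 9 in 12 h over no Dox, and 3 and 44 in 12 h over 3 h. At a fold limit of 5 to 4 in place of 3 to 2 these 4 comparisons had 44 and 147, 76 and 124, 77 and 108, and 71 and 66, HA-Macro MEF 12 h over 3 h had 1 and 2, anti-MacroH2A2 MEF over ES 37 and 93, and HA-Macro 12 h MEF over ES 84 and 108. The share of all tiles past this lower limit is not given, so these counts do not set the ends apart from the genome. The last 50 tiles gave 50 of 934 higher in HA-H3.3 (5.35%, background 4.07%). Of 935 they gave 132 higher in 12 h over no Dox (14.1%, background 6.05%), 80 higher in 12 h over 3 h (8.56%, background 3.12%) and 113 lower in HA-Macro 12 h MEF over ES (12.1%, background 9.74%). The last 10, 187 tiles, gave 7, 3 and 3 higher in 12 h over no Dox (3.74%, background 6.05%), 12 h over 3 h (1.6%, background 3.12%) and anti-MacroH2A2 MEF over ES (1.6%, background 3.42%). The 6 h library in place of 3 h gave 0 and 0 over time and 17 higher over no Dox, and a promoter median of -0.20 in ES cells in place of -0.43; 5 reads added gave -0.43 in MEFs in place of -0.20, where equal reads in libraries of unequal depth score -0.88, and an added read scaled to depth gave -0.11. On arrays, distinct intervals gave 1.14, 1.18 and 1.16 times the uninduced value in ES cells and 1.18, 1.32 and 0.828 times in MEFs, the last a reversal. That ratio came with 1617 distinct intervals on the arrays against 1162 in the control, in libraries of 19869559 and 11821973 distinct intervals.

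Every interval counted, the first base as position, no tile discarded and a minimum count left each share within the exact 95% binomial interval of its first value and each count of called tiles within 1.5 times, and turned no log2 ratio of medians. The binomial interval takes tiles as independent, which neighbouring tiles of 1 library are not, so it served only as a set limit. Division by the control, run for shares and ratios of medians, did the same apart from the ratio named for anti-MacroH2A2 MEF, and protein-coding genes alone, run for shares against tiles with as many genes, left these within their intervals. The cause of the shifts was not tested. HA-Macro ES and MEF libraries at 3, 6 and 12 h form 3 time-matched pairs, whose counts of called tiles are given above with no test. Depth limits single promoters, with median counts of 6 to 21 reads, more than tiles.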
